A study of Solanum lycopersicum with 24 samples.

Results

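TMF and the BOP genes are flowering regulators of tomato that were followed here as a group of 4 genes, taken by gene ID out of the 34075 genes of the deposited table. The members were Solyc09g090180 (TMF, TERMINATING FLOWER), Solyc04g040220 (BOP1), Solyc10g079460 (BOP2) and Solyc10g079750 (BOP3). The symbols come from the list that defined the group, since the deposited tables do not pair these IDs with names, and BOP stands for BLADE-ON-PETIOLE. The other genes named below carry symbols that general knowledge of the tomato genome gives to their IDs. Deposited descriptions call Solyc05g056620 (MC) macrocalyx and Solyc06g069430 (FUL1) FRUITFULL-like MADS-box 1. They describe the IDs of MBP20, TM3 and STM3 only as MADS-box genes. The remaining pairings could not be checked in the deposited tables. All 4 members passed the filter on low values, which asked for at least 0.5 RPKM in at least 3 libraries.

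TMF encodes a transcription factor of the plant ALOG family, and the BOP genes encode BTB/POZ co-regulators related to the BLADE-ON-PETIOLE proteins of Arabidopsis. In tomato the TMF and BOP proteins bind each other and hold back floral identity genes, among them ANANTHA, while the shoot meristem is still vegetative. Plants that lack TMF flower early and end the primary shoot in a single flower, so the genes are known as brakes on floral termination. BOP genes are also known for roles at the boundaries between meristems and organs.

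The samples were shoot meristems of wild-type tomato (WT) and of slful, whose genotype the deposited legend gives as ful1/ful2/mbp10/mbp20, a name made of 4 FRUITFULL-like MADS-box genes. Meristems were taken at the vegetative meristem stage (VM), the transition meristem stage (TM), a stage that holds a floral meristem together with its neighbouring inflorescence meristem (FIM), and that same stage on the first sympodial shoot (SFIM). The 8 groups of genotype and stage hold 3 replicates each, and each library was made from a pool of 30 to 60 meristems collected from many plants, so plant-to-plant spread is averaged within a library. Greenhouse conditions were shared by all groups, and the sources used here give neither plant age nor the kind of mutation or number of lines behind slful. No agent or treatment separates the groups.

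Sequencing depth implied by the values ran from 12927954 to 90372290 reads per library. The VM and SFIM values carry 10 decimals and the TM and FIM values 15, so 2 export formats are present, and only FIM against TM and SFIM against VM compare stages within 1 format. The slful FIM libraries varied most among themselves and carried the lowest weight in the fit, 0.261, against 2.05 for slful VM. Among 3 meristem markers (TKN2, WUS and CLV3) 0 were at 0 in any group, and their summed level ran from 150.7 to 308.7 RPKM. The 3 listed genes of the small subunit of Rubisco, which mark green tissue, were also read in every group, summing to 153.9 to 546.4 RPKM. Of the 4 loci named in the genotype, FUL1 was lower in slful at TM, FIM and SFIM, with log2 fold changes of -1.02, -1.41 and -1.25 (limma, adjusted p = 0.0428, 0.0305 and 1.59e-05), and did not pass at VM (adjusted p = 0.27). FUL2 passed at SFIM alone among the stages (-0.78, adjusted p = 0.000102). Its estimates at VM, TM and FIM were also negative, at -0.38, -0.58 and -0.80 (limma adjusted p = 0.0745, 0.116 and 0.181). Averaged over the stages, FUL2 was lower in slful (-0.63, limma adjusted p = 1.07e-05). MBP10 passed at no stage, with estimates of both signs. MBP20 was higher in slful at VM (1.31, adjusted p = 1.48e-08), TM (0.72, adjusted p = 0.0272) and SFIM (0.43, adjusted p = 0.013). Transcript level thus did not mark all 4 loci as reduced, and it does not report on mutations that leave the transcript in place.

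Values below are RPKM, that is reads scaled to gene length and library size, which allows levels of different genes to be set side by side. Fold changes are log2 differences on the scale log2(RPKM + 0.5) with their standard error (SE), tested with limma over 18786 genes and adjusted by Benjamini-Hochberg, and a gene was called where the adjusted p was under 0.05. RNA came from whole meristem pools, so fewer cells of a type and less RNA per cell cannot be told apart. Where libraries of different stages are said not to overlap, the share of all genes that also did so is not given. Such statements describe the libraries and add no support to the tests.

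TMF was by far the most abundant member before flowering and fell steeply once floral meristems were present. In WT VM it was at 234.8, 190.0 and 251.7 RPKM in replicates 1 to 3, and in WT TM at 207.2, 175.2 and 229.4 RPKM. The VM and TM libraries overlapped, and TM against VM did not pass (log2 fold change -0.14, SE 0.22, adjusted p = 0.688). In WT FIM the level was 56.45, 63.86 and 51.49 RPKM and in WT SFIM 22.29, 42.59 and 37.27 RPKM. All WT FIM libraries lay below all WT TM libraries, and all WT SFIM libraries lay below all WT FIM libraries. From TM to FIM the log2 level fell by 1.82 (SE 0.22, limma adjusted p = 1.15e-05), to a mean 3.56-fold lower. SFIM against VM, the other comparison within 1 export format, gave -2.75 (SE 0.17, adjusted p = 2.59e-11), a mean level 6.62-fold lower. SFIM against FIM gave -0.79 (SE 0.17, adjusted p = 0.00127), but those stages carry different export formats, and stage and format cannot be told apart there. The order of WT levels was thus VM, TM, FIM and SFIM from high to low, with VM and TM not differing beyond their spread.

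In slful TMF also fell from TM to FIM, and FIM and SFIM did not differ beyond their spread. The slful VM libraries held 276.8, 252.4 and 240.0 RPKM and the slful TM libraries 256.0, 169.2 and 195.8 RPKM. In slful FIM the values were 57.36, 43.24 and 64.51 RPKM, and in slful SFIM they were 52.32, 58.14 and 53.01 RPKM. The FIM and SFIM libraries of slful overlapped, with an estimated log2 difference of 0.0035 (SE 0.30, limma adjusted p = 0.998), while both lay below all VM and TM libraries. FIM against TM in slful gave -1.90 (SE 0.33, adjusted p = 0.00253), a call that was lost without slful FIM replicate 2 (adjusted p = 0.258). SFIM against VM in slful gave -2.22 (SE 0.15, adjusted p = 1.19e-10), a mean level 4.71-fold lower.

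**Figure D1:**
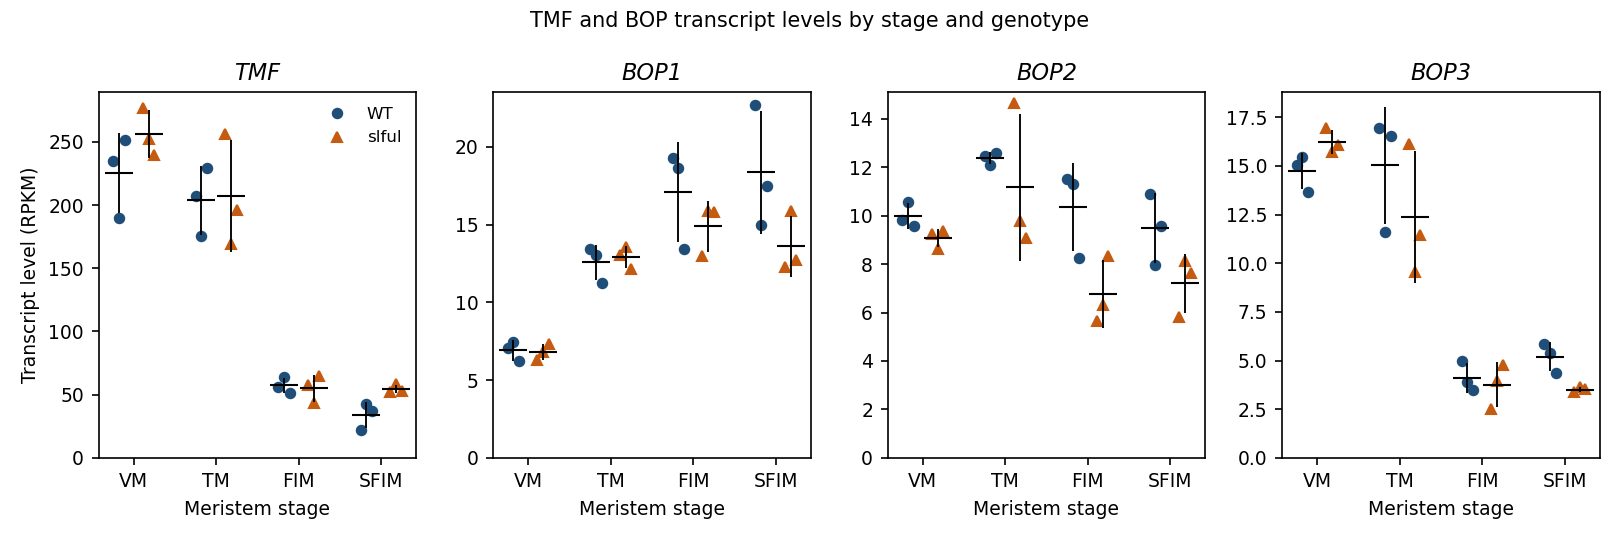
Transcript level in RPKM (linear axis from 0, its range differing between panels) of TMF, BOP1, BOP2 and BOP3 in each library, by stage, with WT as circles and slful as triangles; horizontal marks are group means and vertical bars 1 SD (n = 3). TMF and BOP3 are high at VM and TM and low at FIM and SFIM, BOP1 is lowest at VM, and BOP2 stays between 5.66 and 14.6 RPKM throughout.

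BOP3 followed a course like that of TMF at a far lower level. It was at 15.07, 15.45 and 13.67 RPKM in WT VM and at 16.95, 11.58 and 16.56 RPKM in WT TM. In WT FIM it was at 4.985, 3.901 and 3.494 RPKM, and in WT SFIM at 5.831, 5.386 and 4.373 RPKM. The WT FIM and SFIM libraries lay below every WT VM and TM library, whereas VM overlapped TM and FIM overlapped SFIM. From TM to FIM the log2 level fell by 1.74 (SE 0.17, limma adjusted p = 1.17e-06), a mean level 3.64-fold lower, and SFIM against VM gave -1.43 (SE 0.13, adjusted p = 1.75e-08). Neither TM against VM (0.01, SE 0.17, adjusted p = 0.978) nor SFIM against FIM (0.30, SE 0.13, adjusted p = 0.0855) passed. The last of these passed once library medians were set equal (adjusted p = 0.017) or the libraries were quantile normalized (0.00688).

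In slful BOP3 was at 16.94, 15.73 and 16.07 RPKM at VM and at 16.13, 9.539 and 11.44 RPKM at TM. It was at 2.513, 3.954 and 4.784 RPKM at FIM and at 3.373, 3.624 and 3.528 RPKM at SFIM. The late stages again lay wholly below the early ones. FIM against TM gave -1.60 (SE 0.26, adjusted p = 0.00142), which was lost without slful FIM replicate 2 (adjusted p = 0.12) and with only the 6 libraries compared (0.0588). SFIM against VM gave -2.06 (SE 0.12, adjusted p = 8.14e-12), a mean level 4.63-fold lower. TM against VM missed the threshold (-0.41, SE 0.16, adjusted p = 0.0503). It passed under 7 settings, among them the replicate block (0.0325), medians set equal (0.0384), quantile normalization (0.0324), voom on recovered reads (0.00339) and without slful TM replicate 1 (0.000562), while without slful TM replicate 2 the adjusted p was 0.421.

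BOP1 went the opposite way and was lowest in the vegetative meristem. In WT VM it was at 7.036, 7.479 and 6.197 RPKM and in WT TM at 13.42, 13.02 and 11.26 RPKM. In WT FIM it was at 19.27, 18.64 and 13.43 RPKM and in WT SFIM at 22.7, 14.95 and 17.45 RPKM. Every WT VM library lay below every library of the later stages, and FIM overlapped SFIM. From VM to SFIM the log2 level rose by 1.33 (SE 0.13, limma adjusted p = 5.46e-08), a mean level 2.66-fold higher within 1 export format. TM against VM gave 0.82 (SE 0.17, adjusted p = 0.00141) across formats. FIM against TM (0.42, SE 0.17, adjusted p = 0.138) and SFIM against FIM (0.10, SE 0.13, adjusted p = 0.616) did not pass. All WT FIM libraries lay above all WT TM libraries, the closest pair at 13.43 and 13.42 RPKM, and the interval for FIM against TM ran from 0.06 to 0.78 (unadjusted p = 0.0253). SFIM against TM passed (0.51, SE 0.17, adjusted p = 0.0172), but not without WT TM replicate 3 (0.153), without WT SFIM replicate 1 (0.0575) or with only the 6 libraries compared (0.0589).

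In slful BOP1 was at 6.277, 6.803 and 7.289 RPKM at VM and at 13.03, 13.53 and 12.13 RPKM at TM. It was at 13.01, 15.88 and 15.81 RPKM at FIM and at 12.26, 15.86 and 12.71 RPKM at SFIM. The VM libraries lay below all others, and TM, FIM and SFIM overlapped each other. TM against VM gave 0.88 (SE 0.16, adjusted p = 0.000234) and SFIM against VM 0.95 (SE 0.12, adjusted p = 1.52e-06), while FIM against TM gave 0.20 (SE 0.26, adjusted p = 0.737).

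BOP2 varied least of the 4 genes. It was at 9.803, 10.58 and 9.582 RPKM in WT VM, and at 12.45, 12.11 and 12.58 RPKM in WT TM. In WT FIM it was at 11.53, 11.29 and 8.248 RPKM, and in WT SFIM at 10.89, 7.98 and 9.573 RPKM. The TM libraries were the highest WT libraries, yet 0 of the 6 pairs of WT stages passed for BOP2 (limma, unadjusted p = 0.106 for TM against VM and 0.0343 for SFIM against TM). In slful it was at 9.245, 8.628 and 9.353 RPKM at VM, and at 14.64, 9.789 and 9.075 RPKM at TM. It was at 5.663, 6.293 and 8.332 RPKM in slful FIM, and at 5.82, 8.138 and 7.636 RPKM in slful SFIM. In slful, SFIM lay below TM, at a log2 estimate of -0.58 (SE 0.17, limma adjusted p = 0.0112, and 0.0543 with only the 6 libraries compared). SFIM against VM gave -0.33 (SE 0.12, adjusted p = 0.0324), a call that ended without slful VM replicate 1 (0.0618), slful VM replicate 3 (0.0861) or slful SFIM replicate 1 (0.222), and under 6 of the other settings.

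Stage calls were common among all genes, and the members' counts are read against that. Within 1 export format, 2 of the 4 members fell and 0 rose from TM to FIM in WT, where 10.2% of all genes tested were called (5.54% lower). From VM to SFIM in WT, 2 fell and 1 rose, where 44.4% were called (26.4% lower and 17.9% higher). In slful the TM to FIM comparison called 2 members lower, where 3.41% of genes were called in either direction (373 of 18786 lower). From VM to SFIM in slful, 3 were lower and 1 higher, where 47.8% were called (5292 genes lower and 3693 higher). Across formats, from VM to TM, 1 member rose in each genotype. There 25.4% of genes were called in either direction in WT (2820 higher) and 32.8% in slful (2967 higher). In the other stage pairs across formats, called genes made up 31.7% in WT SFIM against FIM, 44.4% in WT FIM against VM, 41.1% in WT SFIM against TM, 3.34% in slful SFIM against FIM, 25.1% in slful FIM against VM and 31.3% in slful SFIM against TM. The summed level of the 3 Rubisco genes averaged 294.8 RPKM in WT VM, 389.6 in WT TM, 256.8 in WT FIM and 179.8 in WT SFIM, and 316.5, 276.9, 222.0 and 210.4 RPKM in slful. From VM to SFIM 2 of the 3 fell and 1 did not pass in each genotype. Its part in these results was not tested. The summed meristem markers, most of which is TKN2, ran from 150.7 to 180.4 RPKM in WT VM and from 227.6 to 247.4 RPKM in WT SFIM. Of the 3 markers 2 rose from VM to SFIM in WT, while CLV3, a signal peptide gene of the stem cell niche, fell from 10.46 ± 3.15 to 4.99 ± 2.46 RPKM (-1.09, SE 0.28, adjusted p = 0.00294), and in slful it fell as well (-1.54, SE 0.25, adjusted p = 2.99e-05). The part of these markers was likewise not tested.

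Taken per length, the make-up of the BOP transcripts changed with stage. The 3 BOP genes summed to 31.6 ± 2.05 RPKM in WT VM, 39.97 ± 3.08 in WT TM, 31.6 ± 5.65 in WT FIM and 33.0 ± 5.73 in WT SFIM (mean ± SD, n = 3). All WT TM sums, 36.7 to 42.8 RPKM, lay above those of WT VM and WT FIM. In slful the sum was 32.1 ± 0.831 RPKM at VM, 36.4 ± 6.38 at TM, 25.4 ± 3.92 at FIM and 24.3 ± 3.11 at SFIM, and all FIM and SFIM sums lay below all VM and TM sums. BOP3 held 46.6% ± 0.58 of that sum in WT VM and 37.4% ± 5.1 in WT TM, then 13.1% ± 1.37 in WT FIM and 15.9% ± 2.72 in WT SFIM (SD, n = 3). BOP1 held 21.8% ± 0.669 in WT VM, 31.6% ± 3.8 in WT TM, 54.1% ± 0.904 in WT FIM and 55.3% ± 2.4 in WT SFIM. BOP2 kept between 28.8% and 32.8% in all 4 WT stages. BOP3 was therefore the leading BOP transcript in the vegetative meristem and BOP1 in the inflorescence stages. These shares are descriptions, since the genes were measured in the same libraries.

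**Figure D2:**
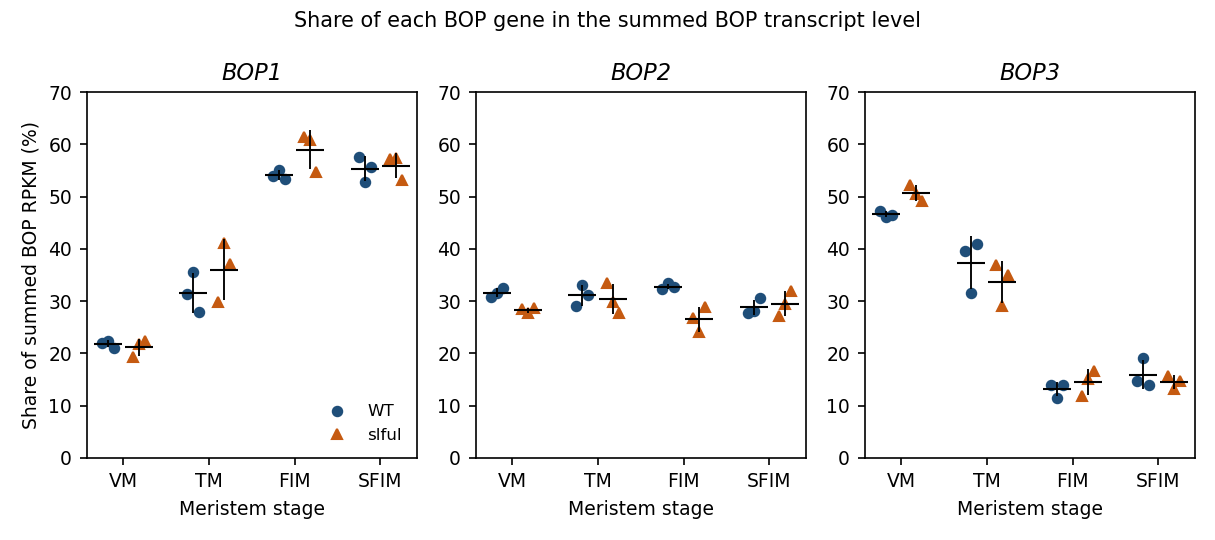
Share in percent of each BOP gene in the summed RPKM of BOP1, BOP2 and BOP3 in each library (axis from 0), by stage, with WT as circles and slful as triangles; horizontal marks are group means and vertical bars 1 SD (n = 3). The share of BOP1 goes from 21.8% in WT VM to 55.3% in WT SFIM while that of BOP3 goes from 46.6% to 15.9%.

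In slful the BOP3 share was 50.6% ± 1.54 at VM, 33.6% ± 4.09 at TM, 14.5% ± 2.4 at FIM and 14.5% ± 1.32 at SFIM (SD, n = 3). The BOP1 share was 21.1% ± 1.59, 36.03% ± 5.79, 58.9% ± 3.73 and 55.9% ± 2.34 at the same stages. BOP3 led at VM and BOP1 at FIM and SFIM in both genotypes, whereas at TM the highest mean share was that of BOP3 in WT and of BOP1 in slful, with overlapping libraries. Slful against WT was compared for each BOP gene at each stage, in 12 exact 2-sided permutation tests of 3 libraries against 3, which cannot give a p below 0.1. At VM the slful libraries did not overlap with WT for BOP2 (28.2% against 31.6%, exact permutation p = 0.1, 0.4 adjusted over the 12) or BOP3 (50.6% against 46.6%, the same p). At FIM the BOP2 share was 26.5% against 32.8% without overlap (exact p = 0.1, 0.4 adjusted). In the other 9 cases the libraries overlapped, with exact p from 0.2 to 0.8.

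The comparison of slful with WT asked whether the slful genotype goes with a change in these flowering brakes. At VM, TM and FIM, 0 of 4 members passed in limma, against 1.67%, 0.367% and 0.128% of all genes, and at an unadjusted p under 0.05 there were 0, 0 and 1, the last being BOP2, against 12.7%, 11.1% and 11.1% of all genes. At SFIM TMF was higher and BOP3 lower in slful, 2 of 4 members, where 2.08% of all genes were called (1.65% higher, 0.431% lower). Both SFIM calls were lost under several settings. All 4 members had an unadjusted p under 0.05 at SFIM, as did 13.7% of all genes.

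TMF in slful SFIM was at 54.5 ± 3.18 RPKM against 34.05 ± 10.5 RPKM in WT SFIM (SD, n = 3), a mean level 1.6-fold higher. All 3 slful libraries, from 52.32 to 58.14 RPKM, lay above the 3 WT libraries, from 22.29 to 42.59 RPKM, which 11.8% of all genes also did. The log2 fold change was 0.72 (SE 0.16, 95% interval 0.39 to 1.05, adjusted p = 0.0176). This SE, like every SE given here, rests on a spread shared by all 8 groups and scaled by a weight per group. The weight was 1.7 for WT SFIM and 1.56 for slful SFIM. The SE and interval therefore do not measure the spread of TMF in the 6 SFIM libraries alone. The call ended without slful SFIM replicate 2 (adjusted p = 0.0733) or replicate 3 (0.0697), with every group weighted equally (0.17), with TM and FIM left out (0.114) and with the 6 SFIM libraries alone (0.297). At VM the estimate was 0.19 (interval -0.15 to 0.53), at TM 0.01 (-0.51 to 0.53) and at FIM -0.07 (-0.71 to 0.57). The genotype differences at SFIM and FIM differed by 0.79 (SE 0.35, adjusted p = 0.458, a test that called 0.0106% of all genes) and the joint test of genotype by stage gave adjusted p = 0.387 (0.192% called), so the SFIM difference was not shown to be particular to that stage.

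BOP3 in slful SFIM was at 3.51 ± 0.127 RPKM against 5.2 ± 0.747 RPKM in WT SFIM (SD, n = 3), a mean level 1.48-fold lower. All slful libraries lay below all WT libraries, which 6.37% of all genes also did. The log2 fold change was -0.50 (SE 0.13, 95% interval -0.76 to -0.24, adjusted p = 0.0403). It ended without any 1 of 5 of the 6 SFIM libraries, the exception being WT SFIM replicate 3 (adjusted p = 0.0405 without it and up to 0.136 without another). It also ended with no filter (0.0698), equal weights (0.519), voom on recovered reads (0.0908) and the 6 SFIM libraries alone (0.202). At VM the slful libraries all lay above WT, 15.73 to 16.94 against 13.67 to 15.45 RPKM, as did those of 10.8% of all genes, with an estimate of 0.14 (interval -0.13 to 0.41, adjusted p = 0.738). The difference between the SFIM and VM estimates was -0.64 (SE 0.18, unadjusted p = 0.00193, adjusted p = 0.201, 0.154% of all genes called) and the joint genotype by stage test gave adjusted p = 0.299.

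BOP1 and BOP2 passed in no comparison of the genotypes. BOP1 averaged 13.6 ± 1.96 RPKM in slful SFIM and 18.4 ± 3.95 RPKM in WT SFIM (log2 fold change -0.41, SE 0.13, interval -0.67 to -0.14, adjusted p = 0.102), with overlapping libraries, and it passed only without WT SFIM replicate 2 (0.0285). BOP2 was at 7.2 ± 1.22 against 9.48 ± 1.46 RPKM in SFIM (-0.38, SE 0.13, interval -0.64 to -0.11, adjusted p = 0.14). In FIM, where 1 WT library overlapped with slful, BOP2 was at 6.76 ± 1.4 against 10.4 ± 1.83 RPKM (-0.58, SE 0.25, interval -1.10 to -0.07, adjusted p = 0.428). Its slful libraries at VM, 8.628 to 9.353 RPKM, all lay below WT, 9.582 to 10.58 RPKM, as did those of 6.2% of all genes (-0.13, SE 0.13, adjusted p = 0.76).

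**Figure D3:**
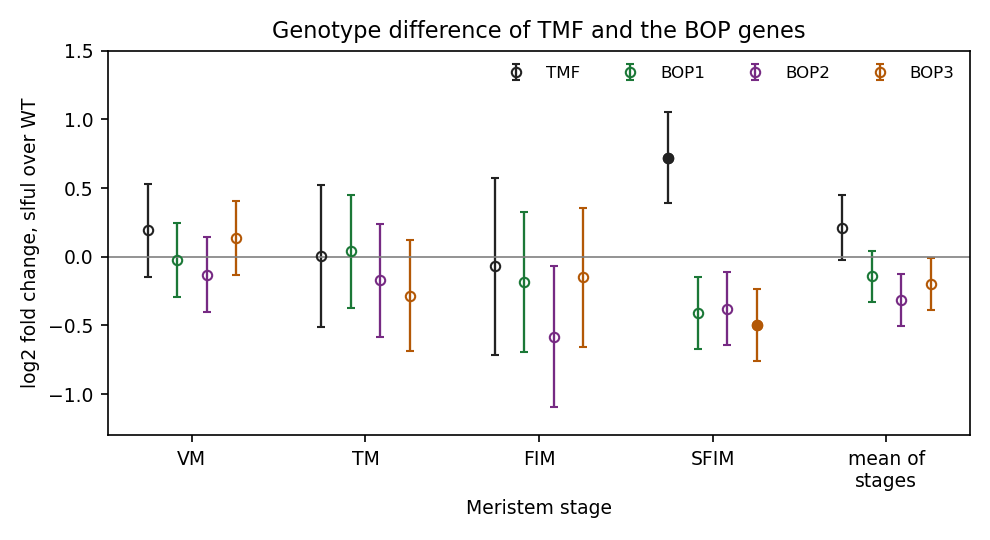
Log2 fold change of slful over WT on log2(RPKM + 0.5) for each member at each stage and for the mean of the stages; points are limma estimates, bars their 95% intervals, and filled points have an adjusted p under 0.05 over all genes. At SFIM TMF lies at 0.72 and BOP1, BOP2 and BOP3 at -0.41, -0.38 and -0.50.

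Averaged over the 4 stages, 0 of 4 members passed in limma, where 2.76% of all genes did. At an unadjusted p under 0.05 there were 2, BOP2 and BOP3, where 18.1% of all genes were. The smallest adjusted p was that of BOP2 (-0.32, SE 0.09, interval -0.51 to -0.13, unadjusted p = 0.0024, adjusted p = 0.0666). It was 0.039 with equal weights and passed without WT FIM replicate 3 (0.0398), slful TM replicate 1 (0.0162) or WT SFIM replicate 2 (0.0357). TMF gave 0.21 (SE 0.11, adjusted p = 0.329), BOP1 -0.14 (SE 0.09, adjusted p = 0.409) and BOP3 -0.20 (SE 0.09, adjusted p = 0.249). The authors' deposited tables of changed genes, with 130 genes at VM, 124 at TM, 216 at FIM and 121 at SFIM, list 0 of the 4 members, and every gene on them has an absolute log2 fold change over 1.

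The level of TMF relative to its BOP partners also changed with stage. TMF was at 7.19 ± 1.45 times the summed BOP level in WT VM, 5.1 ± 0.505 times in WT TM, 1.84 ± 0.238 times in WT FIM and 1.09 ± 0.477 times in WT SFIM (SD, n = 3, per length). In slful the ratio was 7.99 ± 0.602 at VM, 5.66 ± 0.452 at TM, 2.2 ± 0.527 at FIM and 2.25 ± 0.17 at SFIM. At SFIM the ratio ran from 2.1 to 2.44 in the slful libraries and from 0.566 to 1.5 in WT, without overlap. The ratio was computed after the values had been seen, so it is given with no test. It combines TMF, called higher at SFIM, with a sum that holds BOP3, called lower there, and is not a separate result. The summed BOP level in SFIM ran from 21.4 to 27.6 RPKM in slful and from 28.3 to 39.4 RPKM in WT, although BOP1 and BOP2 each overlapped. No share over all genes is given for the ratio or the sum.

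ANANTHA (AN, Solyc02g081670), an F-box gene of floral identity that TMF is known to repress, was lowest at VM and rose with the floral meristem. In WT it was lower again at SFIM. It had 0 reads in all 3 WT VM libraries, where 3 reads are the limit that 0 reads allow, and 2 reads in 1 slful VM library with 0 in the others. In WT TM it was at 0.288, 1.28 and 0.105 RPKM, in WT FIM at 4.28, 4.45 and 7.11 RPKM, and in WT SFIM at 1.77, 1.66 and 3.2 RPKM. All WT FIM libraries thus lay above all WT TM libraries, a log2 rise of 2.58 (SE 0.35, limma adjusted p = 4.34e-05). From FIM to SFIM in WT, across formats, AN fell by 1.103 on the log2 scale (SE 0.27, limma adjusted p = 0.00354), and TMF fell over the same step. In slful FIM AN was at 2.65, 6.83 and 7.9 RPKM and in slful SFIM at 3.62, 2.27 and 2.04 RPKM. Those libraries overlapped, and SFIM against FIM in slful did not pass (-0.91, SE 0.48, limma adjusted p = 0.482). AN passed at no stage between genotypes. A link between the levels of AN and TMF was not tested.

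Of 14 listed genes of flowering and floral identity, 13 were tested, and SP5G, listed as a floral repressor, was at 0 RPKM in every library. From TM to FIM in WT, 4 rose, 2 fell and 7 did not pass, with a median log2 fold change of 0.26 against -0.01 over all genes tested. Over all genes tested, 4.71% were called higher and 5.54% lower. The listed genes that rose were AN, MACROCALYX (MC, an AP1-like MADS-box gene of sepal and inflorescence form), FUL1 and JOINTLESS (J, an SVP-like MADS-box gene). Those that fell were the SOC1-like MADS-box genes TM3 and STM3, and STM3 (Solyc01g092950) fell from 123.8 ± 2.72 RPKM in WT TM to 43.2 ± 5.52 RPKM in WT FIM (-1.51, SE 0.13, adjusted p = 1.42e-07). From VM to SFIM in WT, 10 rose, 1 fell and 2 did not pass (median 2.27 against -0.07), and in slful 11 rose, 1 fell and 1 did not pass (median 2.16 against -0.05). Of all genes tested, 44.4% were called in WT and 47.8% in slful. FALSIFLORA (FA), the tomato LEAFY gene, rose from 71.1 ± 5.4 RPKM in WT VM to 86.9 ± 1.9 in WT SFIM (0.29, SE 0.10, adjusted p = 0.0219). COMPOUND INFLORESCENCE (S), a WOX homeobox gene of inflorescence branching, rose from 0.585 ± 0.232 to 33.0 ± 4.32 RPKM over the same stages (4.96, SE 0.13, adjusted p = 2.53e-17).

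At SFIM, where TMF and BOP3 were called, 3 of the 13 flowering genes were higher in slful than in WT and 2 lower. The other 8 did not pass, and the median was 0.04 against 0.02 over all genes tested. Over all genes tested, 1.65% were called higher and 0.431% lower. The 13 include the 4 loci named in the genotype, and FUL1, FUL2 and MBP20 are among the genes called. TM3 averaged 34.4 ± 3.09 RPKM in slful and 13.05 ± 2.58 RPKM in WT (1.38, SE 0.13, adjusted p = 9.69e-07). STM3 averaged 60.7 ± 3.04 and 42.5 ± 4.38 RPKM (0.51, SE 0.09, adjusted p = 0.0037), and MBP20 gave 0.43 (SE 0.09, adjusted p = 0.013). The genes that were lower were FUL1 and FUL2. Of the loci named in the mutant's genotype, 2 were therefore lower, MBP20 was higher and MBP10 did not pass (0.23, SE 0.14, adjusted p = 0.506). At VM 3 of the 13 were higher and 0 lower, at TM 2 and 1, and at FIM 1 and 1. Of all genes tested, 1.67% were called at VM, 0.367% at TM and 0.128% at FIM.

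Genes of organ boundaries and axillary meristems, where BOP genes are known to act, split in their stage course. LATERAL SUPPRESSOR (LS, Solyc07g066250), a GRAS-family gene needed for axillary meristems, was at 8.71 ± 0.436 RPKM in WT VM, 8.72 ± 1.52 in WT TM, 4.25 ± 0.494 in WT FIM and 4.52 ± 0.581 in WT SFIM. It fell from TM to FIM (-0.95, SE 0.14, adjusted p = 0.000148), as TMF and BOP3 did. GOBLET (GOB), a NAC gene of organ boundaries, fell from VM to SFIM (-0.46, SE 0.08, adjusted p = 4.21e-05), while BLIND (BL), a MYB gene of branching, rose (1.19, SE 0.11, adjusted p = 1.8e-08). All 3 boundary genes missed the threshold between genotypes at each stage, with a median of -0.14 at SFIM. Of the KNOX homeobox genes, which maintain meristems and which BOP proteins hold back in Arabidopsis, TKN1 and TKN2 both rose from VM to SFIM in WT (1.07, SE 0.08, adjusted p = 5.69e-10, and 0.47, SE 0.08, adjusted p = 7.82e-05). Neither passed between genotypes at a stage.

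**Figure D4:**
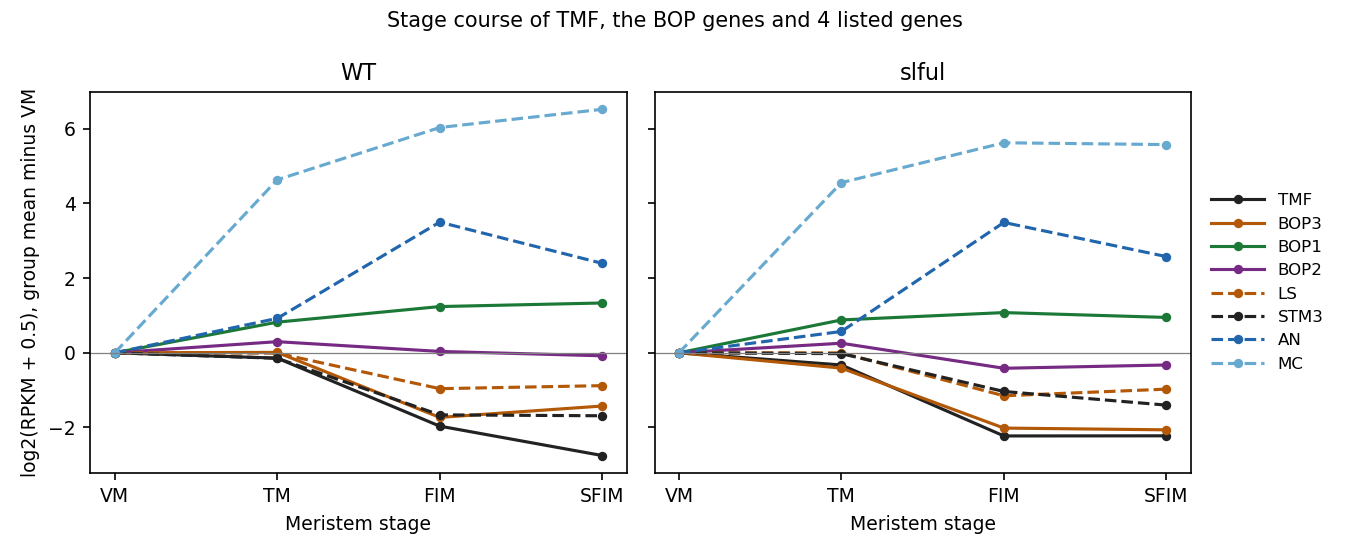
Group mean of log2(RPKM + 0.5) at each stage minus that at VM of the same genotype, for the 4 members (solid lines) and for LS, STM3, AN and MC (dashed lines), which were picked from the listed genes after their values were seen. TMF, BOP3, LS and STM3 lie below 0 at FIM and SFIM in both genotypes, while BOP1, AN and MC lie above it.

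Likeness to each member was measured as the Pearson correlation of the 8 group means on the log2 scale, over the other 18785 genes tested, as a description of means that share libraries and depth. LS had the pattern most like BOP3 of all genes (r = 0.985), followed by Solyc07g040890 (r = 0.984), and TMF ranked 321 for BOP3 (r = 0.934). For TMF the highest was Solyc02g080270 (r = 0.997), which has no name in the files used here and whose group means spanned only 4.29 to 4.74 on the log2 scale. Solyc08g066440 came next (r = 0.993), and BOP3 ranked 574. STM3 ranked 396 for TMF (r = 0.946), while AN (r = -0.897) and TKN1 (r = -0.924) lay near the other end. The Rubisco genes Solyc02g063150, Solyc02g085950 and Solyc03g034220 gave r = 0.345, 0.823 and 0.894 with TMF. With BOP3 they gave 0.285, 0.696 and 0.819. For BOP1 the highest were Solyc10g076280 (r = 0.994) and Solyc07g042270 (r = 0.993). The group means of Solyc10g076280 lay near the filter on low values, at -0.65 to 0.56 on the log2 scale. For BOP2 the highest were Solyc01g005690 (r = 0.982) and Solyc02g068100 (r = 0.978). Their group means spanned only 3.36 to 3.77 and 6.36 to 6.58. None of these genes most like BOP1 or BOP2 has a name in the files used here. BOP1 correlated negatively with TMF (r = -0.807) and BOP3 (r = -0.752), and BOP2 weakly with BOP1 (r = -0.119).

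The depth behind the members was ample for TMF and thinner for BOP3 in the late stages. TMF had between 415 reads (WT SFIM replicate 1) and 13000 reads (WT TM replicate 3) per library, over a gene length of 627 bases. BOP1 had 274 to 1655 reads over 1626 bases, BOP2 130 to 1688 over 1485 bases and BOP3 57 to 2195 over 1467 bases. The fewest for BOP2 and BOP3 were in slful FIM replicate 1. The BOP genes are related in sequence, and the sources used here do not say how reads that match more than 1 gene were counted. They do not give strandedness either, so reads from a gene and any antisense partner cannot be told apart.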

How the data were processed

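The RPKM values were deposited by the authors as 1 table of 34075 genes in 24 libraries, RPKM per the legend sheet although the workbook's name speaks of raw counts. Per the labels' protocols, DNase-treated RNA went into TruSeq libraries. Aligner, annotation and build: not given in the sources used here. Sheets of changed genes deposited by the authors give log2 fold changes, signed fold changes and p-values with false discovery rates, from a test they do not name. No ID of the table matched the reference table of symbols (0 of 34075), and no coordinates or sequences were used.

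Reads were recovered from the RPKM values with Python 3.11.15 and numpy 2.4.6. All 22590 genes above 0 in at least 6 libraries came out whole (tolerance 0.02 reads, largest distance 0.000181). They gave depth, lengths and 1 alternative test, and cover counting error only. The 18786 genes that reached 0.5 RPKM in 3 or more libraries entered limma 3.58.1 (R 4.3.3). Fold changes on log2(RPKM + 0.5) come out too small for low genes. All 24 libraries entered 1 fit with a mean and 1 precision weight per group and a mean-variance trend (degrees of freedom: 16 residual, 4.97 prior), 2-sided, Benjamini-Hochberg over all genes. In simulated data for slful versus WT at FIM over 18786 genes, 2.02% of calls were false with group weights and 37.9% with equal weights, and 67 of 100 2-fold changes were recovered with group weights. At SFIM 4.35% were false and 92 of 100 were recovered with group weights, against 0% and 84 with equal weights. Of 100 simulated 1.4-fold changes, group weights recovered 62 at VM, 44 at TM, 30 at FIM and 62 at SFIM. At TM 5.43% were false with group weights and 17.9% with equal weights. The simulated noise was normal with its own spread in each group, which is the form that group weights assume. The simulation therefore cannot show which fit suits the real libraries better. Replicates are biological per the series text. The members and lists were chosen with earlier results of these data known. Named genes are the members, the listed genes and, for each member, the 2 genes of most similar pattern.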

Additional observations from a re-analysis of the deposited data

How the results depend on the processing

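For 96 results of the 4 genes, 1856 combinations of a result and a setting were run, and 52 of them changed a call, in 16 results. The estimate changed sign in 40 combinations, all of results that were not called. Each call of TMF and BOP3 between WT stages, and of BOP1 between WT VM and each later stage, held in every setting run, as did each call between slful SFIM and slful VM or TM for TMF and BOP3. The cause of each change below was not tested. For TMF, slful versus WT at SFIM, the adjusted p was 0.17 with equal weights, 0.297 with only the groups compared, 0.114 with only the stages of 1 export format and 0.00308 to 0.0733 leaving out 1 library. For BOP3 in that comparison it was 0.0698 with no filter, 0.519 with equal weights, 0.0908 with voom on recovered reads, 0.202 with only the groups compared and 0.0405 to 0.136 leaving out 1 library. For BOP1 there, leaving out 1 library gave 0.0285 to 0.351. For BOP2 averaged over stages it was 0.039 with equal weights and 0.0162 to 0.318 leaving out 1 library. For BOP2, slful SFIM versus VM, it was 0.0631 with no filter, 0.154 with equal weights, 0.0862 with the replicate block, 0.0819 with medians set equal, 0.0746 with quantile normalization, 0.0629 with only the groups compared and 0.0192 to 0.222 leaving out 1 library. For BOP2, the adjusted p was also 0.00767 for slful FIM versus TM with equal weights, 0.0408 for WT SFIM versus TM with voom (0.0263 to 0.249 leaving out 1 library), 0.0481 for WT TM versus VM and 0.0543 for slful SFIM versus TM with only the groups compared. For BOP3, slful TM versus VM, it was 0.0441 with a pseudocount of 1, 0.0473 with at least 1 RPKM, 0.0325 with the replicate block, 0.0384 with medians set equal, 0.0324 with quantile normalization, 0.00339 with voom and 0.000562 to 0.421 leaving out 1 library. For BOP3, WT SFIM versus FIM, it was 0.017 with medians set equal, 0.00688 with quantile normalization and 0.0157 to 0.422 leaving out 1 library. For slful FIM versus TM it was 0.0588 for BOP3 with only the groups compared, 0.000119 to 0.12 for BOP3 and 0.000102 to 0.258 for TMF leaving out 1 library. BOP1 gave 0.0589 for WT SFIM versus TM with only the groups compared (0.00344 to 0.153 leaving out 1 library) and 1.03e-05 to 0.126 for slful FIM versus VM. TMF, slful TM versus VM, gave 0.0237 to 0.671.

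Leaving out 1 library, the slful minus WT difference in share of summed BOP RPKM changed sign for BOP1 at VM (-1.22 to 0.255 points) and SFIM (-0.649 to 1.96), BOP2 at TM (-2.27 to 0.534) and SFIM (-0.466 to 1.96), and BOP3 at SFIM (-2.36 to 0.179). Genes called between genotypes numbered 313 at VM, 69 at TM, 24 at FIM and 391 at SFIM, against 84, 339, 284 and 69 with equal weights, 49, 4, 9 and 15 with only the groups compared, 122 at VM and 208 at SFIM with 1 export format, and 183 at TM and 12 at FIM with the replicate block. At FIM they were 39 with no filter, 37 with medians set equal and 59 with quantile normalization. Deviations of same-numbered libraries had correlations of 0.23, 0.18 and 0.15 at TM, all positive. At each of the other stages the signs were mixed (-0.33 to 0.16). The numbers were not taken as pairs in the main fit, although the TM values leave pairing there possible. The replicate block changed no call of a member beside those given. Depth was lowest in slful TM replicate 1 and slful FIM replicate 1, and BOP3 had only 57 reads in the latter.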
